A study of Sus scrofa with 8 samples.

Results

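Neutrophils and monocytes enter the heart wall after an infarction and carry granule and surface proteins, some of which other cells also make. The genes S100A8, S100A12, LCN2, AQP9, ANPEP and ADAM28 encode such proteins and were compared between infarcted and remote myocardium of the pig. They were chosen by symbol, and each symbol was looked up in the gene names of the authors' comparison table. All 6 members were found, with 1 transcript cluster (the array's unit for a gene, called transcript below) each, among 25470 transcripts measured. S100A8, S100A12 and LCN2 encode granule or cytosolic proteins of neutrophils and the other 3 encode proteins of the cell surface.

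The samples came from 4 young female Large White pigs in which a balloon closed the left anterior descending coronary artery for 90 min, and from each heart 1 infarcted sample (anterior wall) and 1 remote sample (posterior wall of the left ventricle) was taken. All pigs received amiodarone, acetylsalicylic acid and antibiotics around the infarction, and only animals with a sufficiently large infarct and a low ejection fraction were kept. The remote sample is thus tissue of an infarcted heart under the same drugs, and no uninfarcted animal was measured. The design text of the series places tissue collection at day 7, and the paper's methods place it later.

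In neutrophils the granules are filled while the cells mature in the bone marrow and are emptied when the cells reach injured tissue, where the released proteins trap iron, cut matrix and alert other leukocytes. S100A8 and S100A12 are calcium-binding proteins of the cytosol that act as alarm signals once outside the cell, and S100A8 works as a pair with S100A9. LCN2 is stored in granules and withholds iron from bacteria. AQP9 is a channel for water and glycerol, ANPEP a peptidase known as CD13, and ADAM28 a metalloprotease of leukocytes that binds integrins. None of the 6 is limited to neutrophils: monocytes share most of them, ANPEP is also found on fibroblasts and vessel cells, AQP9 in liver, and LCN2 in stressed epithelium.

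RNA was measured on Affymetrix porcine gene arrays, and the deposited values are log2 signals, so that a difference of 1 is a doubling. The median log2 signal over all transcripts lay between 2.96 and 3.22 on the 8 arrays, and a mean below all of these medians is called near background here. Both arrays of pig 4 stood apart: their signals had an SD of 1.46 (infarcted) and 1.49 (remote), while the SD on the other arrays was 1.68 to 1.80 (infarcted) and 1.73 to 1.84 (remote). Results are therefore also given without pig 4. The 8 cardiomyocyte markers that carry a name averaged 6.53 to 8.93 in infarcted and 9.84 to 10.42 in remote samples. Names are limited to transcripts that differed between the regions, as described below, so this is no independent check of the tissue label. Rose and fell below mean an adjusted p under 0.05 in limma (Benjamini-Hochberg over all transcripts, infarcted minus remote), unless another fit is named. That fit has region as its only factor and ignores that each pig gave both samples. A fit with the pig as a block keeps the pairs, and its counts are given too.

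All 6 genes had a higher mean signal in infarcted than in remote tissue, and 4 of them rose: S100A8, LCN2, ANPEP and ADAM28. Over all 25470 transcripts 630 rose, which is 2.47%, and 872 fell, which is 3.42%. Gene names come from a table limited to transcripts that differed between the regions by the authors' own comparison, so a member had to differ in these samples to be found at all. That table holds 9.15% of all transcripts. Of the 1010 transcripts of that table with a higher mean in infarcted tissue, 55% rose, and the 4 of 6 members are to be read against that share. The median log2 fold change of the members was 2.06, against 0.02 over all transcripts. Selection by that table pushes the members away from 0.02, so this gap is no result about them. The 1010 transcripts had median differences of 1.54, 1.56, 1.51 and 0.77 in pigs 1 to 4. AQP9 had an adjusted p of 0.0689 and S100A12 one of 0.0977 with region only, and neither is counted as risen with all 8 arrays. With the pig as a block, which keeps the pairs, the adjusted p was 0.0151 for AQP9 and 0.0617 for S100A12. With pig 4 left out all 6 passed, as did 94.4% of those 1010 transcripts (6.89% of all transcripts rose then). Without pig 1, 2 or 3 none of the 6 passed, and only 59 to 122 of all transcripts rose. Leaving out single arrays of pigs 1 to 3 left 1 or 2 members past the threshold, while 6 passed without the infarcted and 4 without the remote sample of pig 4. In a fit with the pig as a block, 5 of the 6 passed, against 83.6% of the 1010 transcripts and 4.57% of all.

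In remote tissue 5 of the 6 genes were near background, and LCN2 was the exception by a narrow margin (mean 3.31, highest array median 3.22). The remote means of S100A8 (2.88), S100A12 (2.33), AQP9 (2.94), ANPEP (2.11) and ADAM28 (2.87) all lay below the median of every array. The fold changes of these 5 genes start from a signal not shown to be above background, so their sizes are not exact and are not ranked here. ANPEP and S100A12 were below the array's own median in all 4 remote samples, S100A8 in 3, AQP9 and ADAM28 in 2 each, and LCN2 in 1. In infarcted tissue all 6 means were above that range, and the only samples below their own array's median were those of pig 4 for S100A12, AQP9 and ANPEP.

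**Figure D1:**
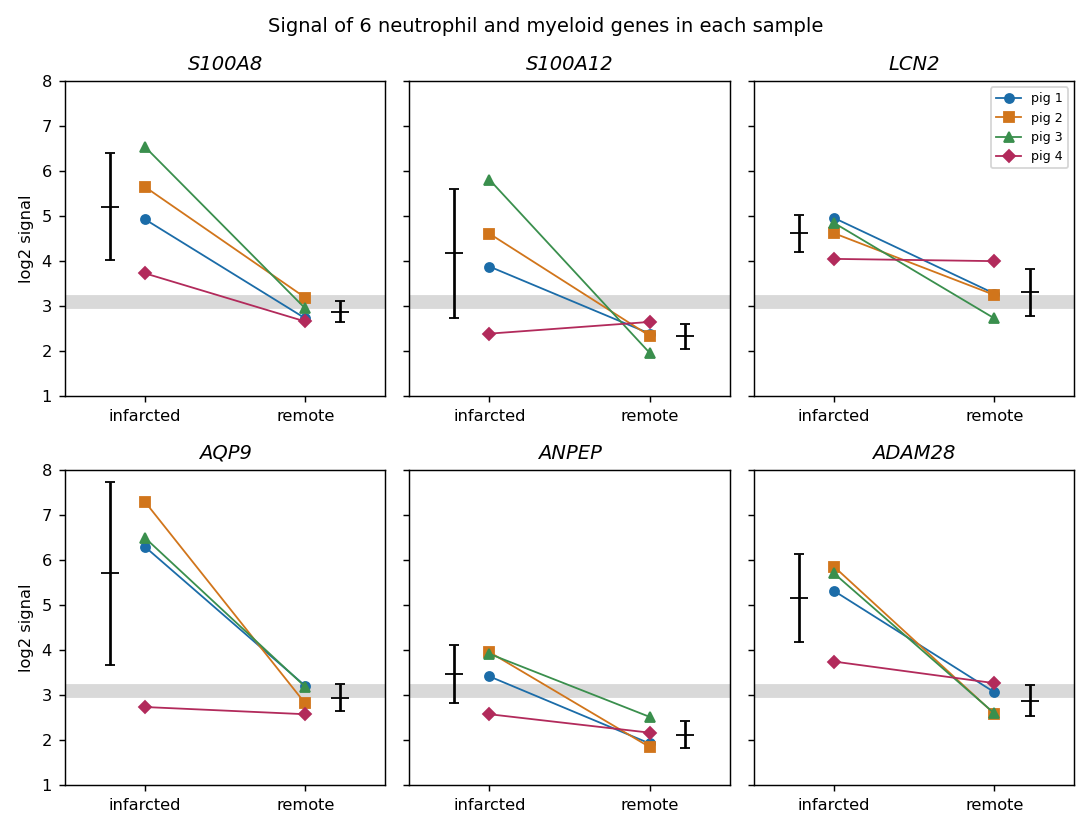
Log2 signal (vertical axis) of each of the 6 genes in the infarcted (left) and remote (right) sample of each pig, with a line joining the samples of 1 pig, the mean ± SD of the 4 pigs beside them in black, and the range of the array medians (2.96 to 3.22) in grey. Pig 4 has the lowest infarcted signal in every panel, and the remote means lie below the grey band except for LCN2.

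Among the granule and cytosolic proteins, S100A8 was higher in the infarcted sample of every pig. Its log2 signal was 4.93, 5.65, 6.54 and 3.73 in infarcted tissue of pigs 1 to 4, against 2.73, 3.19, 2.95 and 2.66 in their remote tissue. The groups did not overlap, and pig 3 had the highest and pig 4 the lowest infarcted signal. The mean was 5.21 ± 1.19 in infarcted and 2.88 ± 0.24 in remote tissue (SD, n = 4 pigs). The log2 fold change in limma was 2.33 ± 0.48 (standard error) with adjusted p = 0.0176, or 5.03-fold. S100A8 thus rose, and the lowest infarcted signal was 0.54 above the highest remote one. The call was lost, with an adjusted p over 0.05, when the infarcted sample of pig 1 (0.0514) or 2 (0.0520) or the remote sample of pig 1 (0.0601) or 3 (0.0544) was left out.

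S100A12, which signals through the receptor RAGE, followed S100A8 closely in pigs 1 to 3 but not in pig 4. Infarcted tissue gave log2 signals of 3.88, 4.61, 5.81 and 2.39 in pigs 1 to 4, against 2.39, 2.34, 1.96 and 2.65 in remote tissue. In pig 4 the infarcted sample was therefore 0.26 below the remote one, the only such case among the members, and the groups overlapped. The log2 fold change was 1.84 ± 0.57 (standard error), with an adjusted p of 0.0977, and of 0.0617 with the pig as a block. Without pig 4 it was 2.54 ± 0.41 (adjusted p = 0.00283), and leaving out only the infarcted sample of pig 4 gave an adjusted p of 0.00463. S100A12 is next to S100A8 and S100A9 in RefSeq's gene order for the pig genome Sscrofa11.1, with S100A12 between the other two. S100A9 carries no name in the table and was not analysed here.

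LCN2 differed from the calgranulins in that its mean remote signal was not near background, by a narrow margin. That mean of 3.31 lay just above the highest array median of 3.22, and pig 4 had the highest remote signal. Among all transcripts of the remote arrays of pigs 1 to 3, LCN2 ranked at percentile 55.9, 55.6 and 42.7. S100A8 ranked at 44.5, 54.5 and 48.3 there. Log2 signals of LCN2 were 4.96, 4.62, 4.85 and 4.05 in infarcted tissue of pigs 1 to 4 and 3.28, 3.25, 2.73 and 4.0 in remote tissue. The infarcted samples lay within 0.91 of each other, and the groups were separated by only 0.05, between the infarcted and the remote sample of pig 4. LCN2 rose by 1.30 ± 0.30 (log2, standard error) with adjusted p = 0.0299, or 2.47-fold, with means of 4.62 ± 0.41 in infarcted and 3.31 ± 0.52 in remote tissue (SD, n = 4). In pigs 1 to 3 the infarcted sample was higher by 1.68, 1.37 and 2.12, and in pig 4 by 0.05. The call was lost without the infarcted or the remote sample of any of pigs 1 to 3 (adjusted p up to 0.103).

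Among the surface proteins, AQP9 was far higher in infarcted than in remote tissue of pigs 1 to 3, but not of pig 4. Its log2 signal was 6.29, 7.29, 6.49 and 2.73 in infarcted tissue of pigs 1 to 4, against 3.20, 2.81, 3.18 and 2.57 in remote tissue. The infarcted sample of pig 4 thus lay inside the remote range, while those of the other pigs were at least 3.09 above their own remote samples. The mean was 5.70 ± 2.03 in infarcted and 2.94 ± 0.30 in remote tissue (SD, n = 4), and the log2 fold change 2.76 ± 0.78 (standard error, adjusted p = 0.0689). With the pig as a block the adjusted p was 0.0151. Without pig 4 the log2 fold change was 3.63 ± 0.28 (adjusted p = 9.35e-05), or 12.4-fold.

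ANPEP rose, with a remote signal near background. Infarcted tissue gave 3.41, 3.95, 3.91 and 2.57 in pigs 1 to 4, against 1.92, 1.84, 2.51 and 2.16 in remote tissue. The groups did not overlap, by a margin of 0.06 between the infarcted sample of pig 4 and the remote sample of pig 3. Its log2 fold change of 1.35 ± 0.32 (standard error) had an adjusted p of 0.0315 and equals 2.55-fold. The adjusted p was 0.0640 with arrays centred on their medians and 0.0578 after quantile normalization, and it was over 0.05 without the infarcted or the remote sample of any of pigs 1 to 3 (up to 0.108).

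ADAM28 had the lowest p of the members, and its call alone stood when any single array was left out. Its log2 signal was 5.31, 5.85, 5.70 and 3.74 in infarcted tissue of pigs 1 to 4, against 3.06, 2.58, 2.59 and 3.26 in remote tissue. The groups did not overlap, and pigs 1 to 3 were close together in infarcted tissue. ADAM28 rose by 2.28 ± 0.42 (log2, standard error) with adjusted p = 0.0113, or 4.85-fold, and the adjusted p was at most 0.0440 with 1 of the 8 arrays left out. The order of pigs in infarcted tissue was pig 2, 3, 1 and 4 for all 3 surface genes, and pig 3, 2, 1 and 4 for both S100 genes. For LCN2, the other granule gene, it was pig 1, 3, 2 and 4. Of the 1010 higher transcripts of the authors' table, 10.9%, 9.41% and 14.9% had these orders. The orders are a description and do not set surface genes apart from granule genes.

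**Figure D2:**
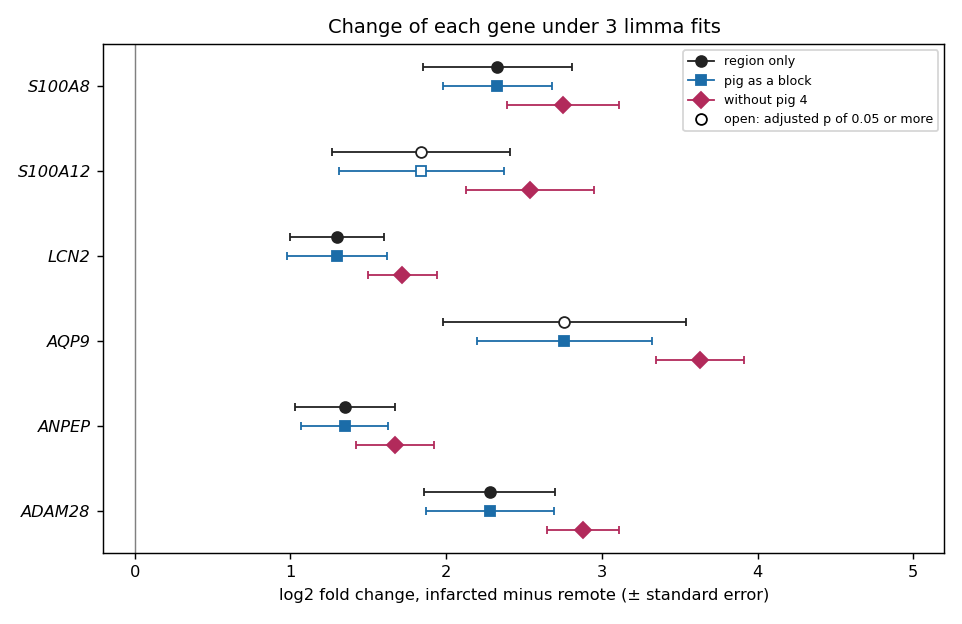
Log2 fold change, infarcted minus remote (horizontal axis, with its standard error as a bar), of each gene in limma with region as the only factor, with the pig as a block, and without pig 4. Open symbols mark an adjusted p of 0.05 or more. These are S100A12 in the fits with all pigs and AQP9 with region only, and every gene lies further right without pig 4.

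As single genes, the members were also compared by an exact permutation test of the 8 values (2-sided), which cannot go below p = 0.0286 with 4 against 4. This test takes the 8 values as exchangeable. Sign flips within the 4 pigs, which keep the pairs, cannot go below p = 0.125 in an exact test, so no single gene could pass that way. The smallest value of the unpaired test was reached by S100A8, LCN2, ANPEP and ADAM28, whose groups do not overlap, while S100A12 gave p = 0.0857 and AQP9 p = 0.114 in the exact test. Infarcted samples all lay above remote ones for 5.19% of all transcripts and for 60.2% of the 1010 higher transcripts of the authors' table, so 4 of 6 is near the share in that table.

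The infarcted sample of pig 4 was the lowest of the infarcted samples for all 6 genes. The median difference between infarcted and remote tissue over the members was 1.94, 2.37, 3.21 and 0.28 in pigs 1 to 4. This is not particular to these genes, since pig 4 was the lowest infarcted sample in 76.9% of the 1010 higher transcripts, with median differences of 1.54, 1.56, 1.51 and 0.77 in pigs 1 to 4. After quantile normalization, which gives all arrays the same spread, the difference in pig 4 was 0.12 for AQP9, −0.31 for S100A12, 0.04 for LCN2, 0.36 for ANPEP, 0.62 for ADAM28 and 1.30 for S100A8. In the deposited values these differences were 0.16, −0.26, 0.05, 0.41, 0.48 and 1.07, for the genes in the same order. The part of the narrower signal spread of pig 4 in its small differences was not tested.

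**Figure D3:**
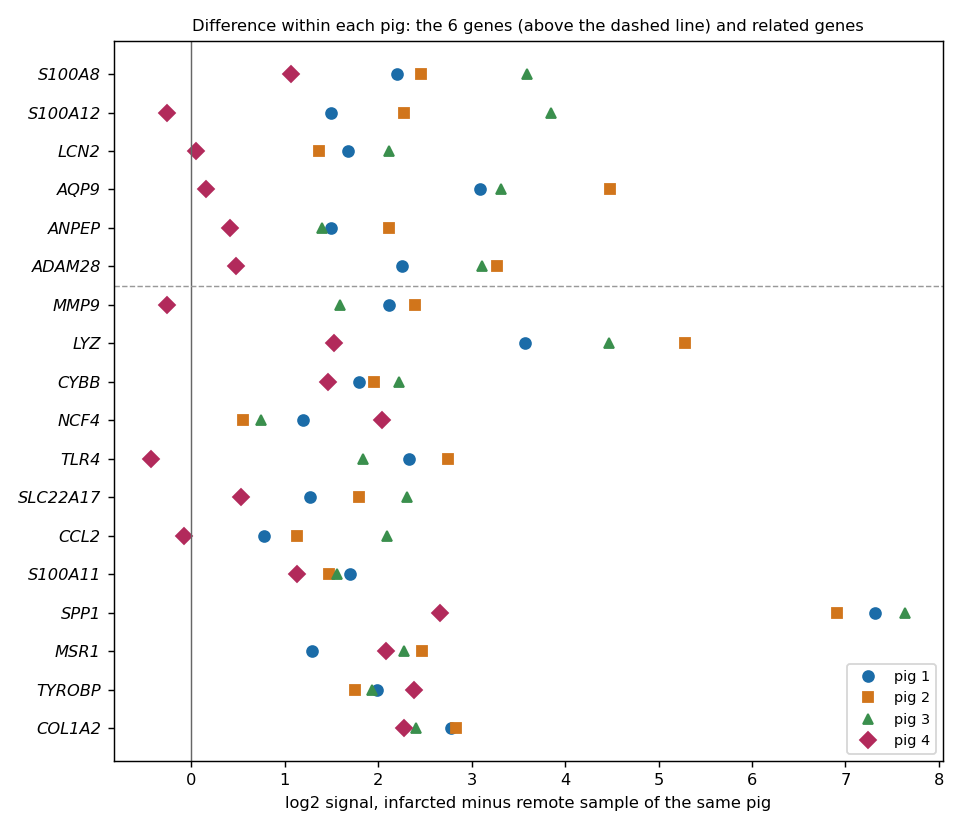
Difference in log2 signal between the infarcted and the remote sample of each pig (horizontal axis), with 1 row per gene. The 6 members are above the dashed line. Below it is a choice of related and marker genes, all with a higher mean in infarcted tissue. Listed genes with a lower mean there, such as CD36, AQP7 and DPP4, are not drawn. Pig 4 lies near 0 or below for S100A12, LCN2, AQP9, MMP9, TLR4 and CCL2, and at 2.38 for TYROBP and 2.08 for MSR1. For SPP1 it lies at 2.66, against 6.91 to 7.64 in the other pigs.

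Other neutrophil genes were sparse in the table. A listed gene, too, is named only if it differed in the authors' comparison, so counts of risen genes in the lists below are to be read against the 55% given above, and counts of fallen genes against 61% of the 1321 transcripts of the table with a lower mean in infarcted tissue. Of 20 further granule proteins 2 were named, and values after ± are standard errors of log2 fold changes here and below. LYZ, the lysozyme that neutrophils share with macrophages, rose by 3.71 ± 0.72 (adjusted p = 0.0134), and MMP9, the gelatinase that forms a complex with LCN2, stood at 1.46 ± 0.44 (adjusted p = 0.0895, 0.0481 with the pig as a block). The call for LYZ was lost without the infarcted sample of pig 1 (0.0528) or 3 (0.0512). MMP9 had, as S100A12 did, a negative difference in pig 4 alone, with values of 2.12, 2.39, 1.59 and −0.26 in pigs 1 to 4. Without the infarcted sample of pig 4 MMP9 passed (adjusted p = 0.00267). Myeloperoxidase, neutrophil elastase and the other listed granule genes have no name in the table and were not analysed here. Of 18 surface receptors of neutrophils, among them CSF3R and CXCR2, none was named alone, and 1 transcript named for both ITGAM and ITGAD had a log2 fold change of 0.90 (adjusted p = 0.0524, 0.0332 with the pig as a block). A list of 15 chemoattractants and cytokines gave 1 named gene, the monocyte chemoattractant CCL2, at 0.98 ± 0.41 (adjusted p = 0.241), with differences of 0.78, 1.13, 2.09 and −0.08 in pigs 1 to 4. CCL2 passed without the infarcted sample of pig 4 (0.0104).

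The phagocyte NADPH oxidase, which makes superoxide in neutrophils and macrophages alike, had 5 listed genes, of which 2 were named and both rose. The other 3 have no name in the table and were not analysed here. NCF4 was the less certain, with calls lost without the infarcted sample of pig 1 or 3 or any single remote sample (adjusted p up to 0.112) and after quantile normalization (0.0631). The catalytic subunit CYBB (GP91-PHOX in the file) rose by 1.85 ± 0.34 (adjusted p = 0.0112) and the regulatory subunit NCF4 by 1.13 ± 0.27 (adjusted p = 0.0346). In pig 4 the infarcted sample was higher by 1.46 for CYBB and 2.04 for NCF4. These differences are above those of all 6 members in the same pig, of which the highest was 1.07.

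Among 10 receptors and partners of the member proteins, 4 were named alone, of which 2 rose, 1 fell and 1 did not pass. The integrin subunit ITGA4, a partner of ADAM28, rose by 1.91 (adjusted p = 0.00289), and SLC22A17, a receptor for LCN2, rose by 1.48 (adjusted p = 0.0260). TLR4, the receptor through which S100A8 acts on myeloid cells, stood at 1.62 ± 0.51 (adjusted p = 0.0987), with 2.33, 2.75 and 1.84 in pigs 1 to 3 and −0.43 in pig 4. Without the infarcted sample of pig 4 the adjusted p of TLR4 was 0.000758. CD36, a fatty acid transporter of muscle and macrophages, fell by 1.90 (adjusted p = 0.0166). The transcripts of TLR4 and CD36 share their annotation with an unnamed locus. The call for SLC22A17 was lost without the infarcted sample of pig 1, 2 or 3 or the remote sample of pig 2 or 3 (adjusted p up to 0.0945) and with median centring (0.0529). The call for CD36 was lost without the infarcted sample of pig 1 or the remote sample of pig 1 or 2 (up to 0.0612).

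Relatives of the members did not all go the same way. Of 17 other S100 genes, S100A11, a partner of annexins in many cell types, was named alone and rose by 1.47 ± 0.23 (adjusted p = 0.00510), by 1.13 or more in each pig, and a transcript named for both S100A3 and S100A4 had 0.89 (adjusted p = 0.111, 0.0486 with the pig as a block). Of 11 other aquaporins AQP7, the glycerol channel of fat and heart, had −0.86 (adjusted p = 0.160, 0.0325 with the pig as a block), so the mean differences of AQP9 and AQP7 had opposite signs. Of 11 other cell surface peptidases 3 were named: DPP4 (CD26) fell by 2.26 ± 0.37 (adjusted p = 0.00613), while LNPEP had −0.83 (adjusted p = 0.244) and FAP of activated fibroblasts 1.52 (adjusted p = 0.103), both under 0.05 with the pig as a block (0.0446 and 0.00655). FAP also passed after quantile normalization (0.0296). Of 12 other ADAM genes 3 were named, of which ADAM12 rose by 2.86 ± 0.28 (adjusted p = 0.000764), while ADAM9 had 1.36 (adjusted p = 0.135, 0.00615 with the pig as a block) and ADAM22 −0.98 (adjusted p = 0.175). Leaving out the infarcted sample of pig 4 brought AQP7, FAP (0.0247 each) and ADAM9 (0.00614) past the threshold, and leaving out its remote sample LNPEP (0.0377) and ADAM22 (0.0425).

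Markers of other cell types also differed between the regions in the same bulk samples, some upward and some downward. In such samples a larger number of cells of a type and more RNA per cell cannot be told apart. Of 21 macrophage and monocyte markers 8 were named alone and all 8 rose, with a median log2 fold change of 1.96, among them the secreted matrix protein SPP1 (6.13), the lectin LGALS3 (2.30), the scavenger receptor MSR1 (2.03) and the adaptor TYROBP (2.01). Their mean log2 signal was 6.91, 7.08, 6.85 and 5.29 in infarcted tissue of pigs 1 to 4, against 4.27, 4.22, 4.08 and 3.76 in remote tissue. The infarcted sample of pig 4 was thus the lowest here too, although it stayed above every remote sample. Pig 4 had differences of 2.38 for TYROBP (1.75 to 1.99 in the other pigs) and 2.08 for MSR1 (1.29 to 2.47). All other markers named alone in this list had their lowest difference in pig 4. Among them were SPP1 with 2.66 (6.91 to 7.64 in the other pigs), LGALS3 with 0.99 (2.41 to 3.34), VSIG4 with 0.82 (1.67 to 3.05) and FCER1G with 0.58 (2.24 to 2.45). With 1 array left out 6 to 8 of these markers rose. VSIG4 did not pass without any single array but the infarcted one of pig 4 (adjusted p up to 0.149) or with median centring (0.0968), nor FCER1G without the infarcted sample of pig 1 or 3 or the remote sample of pig 1, 2 or 3 (up to 0.0645). A transcript named for both CD68 and EIF4A1 had 3.01 (adjusted p = 0.00205).

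Of 7 fibroblast markers 4 were named and all 4 rose (median 2.79), POSTN by 3.85, COL1A1 by 3.0, COL1A2 by 2.57 and COL3A1 by 2.30. Their mean log2 signal was 8.37 to 9.68 in infarcted and 4.55 to 7.18 in remote samples, both lowest in pig 4. The difference between the regions was nevertheless largest in pig 4 (8.37 against 4.55). Of 10 cardiomyocyte markers 8 were named, 5 of these fell and 3 did not pass, with a median of −2.17. With the pig as a block 7 of the 8 fell, TNNC1 (adjusted p = 0.0414) and MYH7 (0.0426) being the additional ones. The largest of these falls by size were those of the sarcomere genes MYBPC3 (−3.43), ACTN2 (−2.81) and MYL3 (−2.50) and the calcium channel RYR2 (−2.88). Pig 4 kept the highest mean cardiomyocyte signal in infarcted tissue (8.93, against 6.53 to 8.57 in the other infarcted samples). Of 11 lymphocyte markers JCHAIN was named, at 1.69 (adjusted p = 0.0685, 0.0414 with the pig as a block), and of 5 endothelial markers none. The transcripts of S100A11, ADAM9, VSIG4, COL1A1, COL1A2, MYBPC3 and RYR2 share their annotation with a further locus. With 1 array left out, 1 to 4 fibroblast markers rose and 2 to 7 cardiomyocyte markers fell. COL3A1 did not pass without the infarcted or remote sample of any of pigs 1 to 3 (adjusted p up to 0.109) or with median centring (0.0717), COL1A1 without the infarcted sample of pig 1 or 3 (up to 0.0642), and POSTN without that of pig 1 (0.0504). ACTN2 (up to 0.0780) and MYL3 (up to 0.0574) did not pass without the infarcted sample of pig 1 or the remote sample of pig 1, 2 or 3, nor MYBPC3 without the infarcted sample of pig 1 or 3 or the remote sample of pig 1 or 2 (up to 0.0645). JCHAIN passed without the infarcted sample of pig 2 (0.0482). The part of these cell types in the changes of the 6 genes was not tested.

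**Figure D4:**
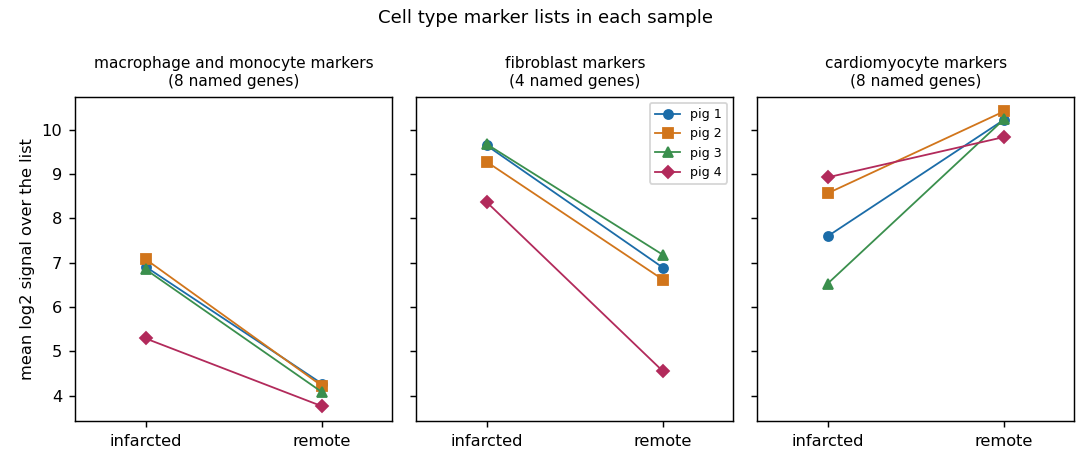
Mean log2 signal over the named genes of 3 cell type lists (vertical axis) in the infarcted (left) and remote (right) sample of each pig. Macrophage and fibroblast markers are higher and cardiomyocyte markers lower in infarcted tissue of all 4 pigs, and pig 4 has the lowest macrophage (5.29) and the highest cardiomyocyte (8.93) level among the infarcted samples.

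The genes most like each member were sought among the transcripts of the table with a single symbol, by the root mean square difference of the 8 log2 signals after subtracting each gene's mean. This is a description over 8 arrays of 4 pigs. S100A8 was closest to RGS2 (0.308), a regulator of G protein signalling, and to TTC39C (0.377). S100A12 was closest to the heparan sulfate cleaving enzyme HPSE (0.378) and then to S100A8 (0.402), which ranked 2 of 1374 transcripts. AQP9 was closest to the matrix proteoglycan VCAN (0.406) and the leukocyte receptor GPR183 (0.452). LCN2 lay next to NDRG1 (0.177) and PLCG2 (0.187), ANPEP next to CPXM1 (0.202) and AP1S2 (0.203), and ADAM28 next to ABRACL (0.203) and TTC39C (0.204). No other pair of members was among the 2 closest.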

How the data were processed

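Infarcted and remote left ventricular RNA of 4 pigs was labelled with the GeneChip WT Pico kit and hybridised to PorGene 1.1 ST arrays. As deposited by the authors, each value is a log2 signal per transcript cluster, normalized and annotated with the Transcriptome Analysis Console by a summarisation method not given in the sources used here. Their comparison table (group averages, fold changes, p-values) was used for gene names only, and their enrichment sheets were not used.

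Region was compared with limma 3.58.1 under R 4.3.3 (default empirical Bayes, region as the only factor, Benjamini-Hochberg over 25470 transcripts). The fit was tested on simulated data, where it called 197 of 200 changed transcripts and 10 unchanged ones. The simulated noise was independent, with no pig effect and no narrower arrays. It therefore cannot show how the fit handles the pairs or pig 4. Further steps used scipy 1.17.1, numpy 2.4.6, pandas 2.3.3 and matplotlib 3.10.9 in Python 3.11.15. Symbols of 115 entries were updated from RefSeq, and 1 list gene was matched by its synonym. The brightest transcript stands for a gene with several. The 14 lists hold 170 genes, of which 38 carry a name on a transcript of their own. Named were all members, up to 4 listed genes per list by size of change, and the 2 genes most like each member. VSIG4, FCER1G, TNNC1, MYH7 and MYL2 were named after their values were seen. A further listed gene is not reported here. Members and lists were chosen with earlier results of these data known.

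The labels give both samples of a pig the same animal, so the pig numbers pair the samples. Deviations of these from their region's mean correlated across transcripts with r between 0.113 and 0.441. Samples of different pigs had r from −0.483 to 0.335. Each infarcted sample had its highest r with the remote sample of the same pig. The remote sample of pig 1, however, had r = 0.177 with its own pair and 0.335 with the infarcted sample of pig 2. The correlations alone thus do not single out every pair from both sides. The p-values measure the spread between the pigs. Alternatives were the pig as a block, median centring, quantile normalization, leaving out the dimmest 25% of transcripts, trend and robust moderation, a fold change limit of 2, and leaving out each array or pig 4. Leaving out pig 1, 2 or 3, and pig 4 together with the block, were added after the data were seen. The number of arrays limits the precision.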

Additional observations from a re-analysis of the deposited data

Results flagged for a closer look

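Among 88 groups of 4 samples (the 6 genes and the named list genes, in each region), 6 held a sample whose gap to the nearest other, divided by the group's range, was above Dixon's critical value, where chance gives about 1 in 20. None of these was a group of S100A8, S100A12, LCN2, AQP9, ANPEP or ADAM28, of which AQP9 in infarcted tissue came closest with a ratio of 0.781. All 6 were samples of pig 4, and every one was low. In infarcted tissue these were SPP1 at a log2 signal of 5.31 (10.15 to 10.37 in the other pigs), FCER1G at 7.32 (9.06 to 9.30) and COL1A2 at 7.71 (9.01 to 9.17). In remote tissue they were ADAM9 at 3.76 (4.90 to 5.09), MYL2 at 11.68 (12.56 to 12.67) and COL3A1 at 3.77 (5.70 to 6.02).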

How the results depend on the processing

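All 6 genes kept a positive log2 fold change in every fit. With 1 array left out the log2 fold change was 1.89 to 2.82 for S100A8, 1.29 to 2.43 for S100A12, 1.11 to 1.53 for LCN2, 2.23 to 3.75 for AQP9, 1.19 to 1.65 for ANPEP and 2.04 to 2.75 for ADAM28, and 1 to 6 of them rose, while 259 to 1383 of all transcripts rose and 415 to 1508 fell (630 and 872 with all arrays). The highest count of members came without the infarcted sample of pig 4. With the pig as a replicate block AQP9 passed (2.76), no other member changed its call, and 1163 transcripts rose and 1441 fell. Without pig 4 AQP9 (3.63) and S100A12 (2.54) passed, with or without the block, and 1755 transcripts rose and 1906 fell (1949 and 2166 with the block). ANPEP did not pass after median centring (1.32) or quantile normalization (1.26). Without pig 1 none of the 6 rose, with 2.37 for S100A8, 1.18 for LCN2, 1.31 for ANPEP and 2.29 for ADAM28, while 59 transcripts rose and 109 fell. Without pig 2 the count was also 0, with 2.29, 1.28, 1.10 and 1.95 for the same genes in that order, and 122 transcripts rose and 273 fell. Without pig 3 it was 0 as well, with 1.91, 1.03, 1.34 and 2.0, and 79 transcripts rose and 151 fell. The cause of the calls lost without pig 1, 2 or 3 was not tested, and each of these fits has 6 arrays. In limma the unadjusted p of all 6 members was at most 0.00831 with all arrays. A member had to differ in the authors' comparison of these same samples to be found, so these low values are no support for the calls. The other settings left the calls of the members as they were. For the 38 list genes no fit reversed a direction, and of 684 fits 112 lost a call and 44 gained one. Each gene had 1 transcript in the table, so averaging over transcripts gave no other value. The signal over background limits the size of the change for the 5 genes near background in remote tissue.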
